A study of Bos taurus with 18 samples.

Results

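The platelet-derived growth factor (PDGF) family comprises 2 receptors, PDGFRA and PDGFRB, and 4 ligand genes, PDGFA, PDGFB, PDGFC and PDGFD. All 6 genes had probes on the array, 12 in all among 43794 gene probes, found by their symbol in the platform annotation. Of these, 6 probes of 4 genes (PDGFRA, PDGFRB, PDGFA and PDGFC) were kept as above background, among 11044 genes tested. The family was chosen by the ratio of PDGFRA at 92 h over 20 h, which had been among the highest in earlier results from these arrays. The ratios of the members to 20 h are therefore given as descriptions, without a test.

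Cumulus cells, the somatic cells that enclose the oocyte in the follicle, came from 6 Holstein cows, 4 years old on average. All cows received 6 doses of 40 mg of the follicle growth hormone FSH, one every 12 h over 3 days, and were then left without FSH, which is called coasting. Each cow passed through every duration in random order and served as its own control, giving 24 collections. Groups had coasted for 44 h (follicles of 6 to 8 mm), 68 h (6 to 8 mm) or 92 h (more than 8 mm), and each was hybridised against cells that had coasted for 20 h (3 to 5 mm). Time and follicle size cannot be told apart between 20 h and any longer time, nor between 92 h and either 44 or 68 h. Each comparison had 3 replicates on 6 two-colour arrays, since every replicate was run in 2 dye orientations. Which cows, and how many, went into a replicate is not stated, so the spread given is that between these samples and may be partly technical. The RNA is from bulk cells, so fewer cells of a type and less RNA per cell cannot be told apart.

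PDGF ligands are secreted dimers. They bring receptor chains together at the cell surface, and the paired chains phosphorylate each other and recruit adaptors that feed the RAS to MAP kinase and PI3 kinase routes. PDGFRA binds A, B and C chains and PDGFRB mainly B and D chains. In many organs the ligands come from epithelium or endothelium and the receptors sit on neighbouring mesenchyme, and in the ovary the receptors are best known from theca, stroma and pericytes.

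The labelled cell type was checked on granulosa genes. Probes for the FSH receptor FSHR, for AMH and for the inhibin subunit INHA were above background in both channels of 18 of 18 arrays. Aromatase, CYP19A1, was above background on 17 of 18 arrays in the coasted channel and 18 of 18 in the 20 h channel. The probe of the granulosa transcription factor FOXL2 was above background on only 3 arrays in the coasted channel and 6 in the 20 h channel. Between 44.3 and 68.7% of gene probes were above background per array in Cy3 and between 26.5 and 58.9% in Cy5, and precision is limited by how many arrays there were. Across genes, replicates of 1 time correlated with r between -0.18 and 0.18 at 44 h, between 0.14 and 0.49 at 68 h and between 0.42 and 0.68 at 92 h.

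PDGFRA, the receptor for A, B and C chains, had its highest mean signal of the time course at 92 h. On its brightest probe, EMBV3_14379, both channels were above background on all 18 arrays. The log2 ratio over 20 h was 0.37, 0.04 and 1.17 in replicates 1 to 3 at 44 h. At 68 h it was 0.14, 1.22 and 0.59. At 92 h it was 1.83, 2.14 and 1.01. All 9 replicate ratios lay above 0, but 1 at each of the earlier times lay close to it, and the lowest ratio at 92 h was below the highest at both earlier times. The mean was 0.53 ± 0.58 at 44 h (SD, n = 3), a 1.44-fold higher signal than at 20 h. It was 0.65 ± 0.54 at 68 h (1.57-fold) and 1.66 ± 0.58 at 92 h (3.16-fold). Among all genes tested, PDGFRA ranked 242 from the highest ratio at 44 h, 146 at 68 h and 28 at 92 h.

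**Figure D1:**
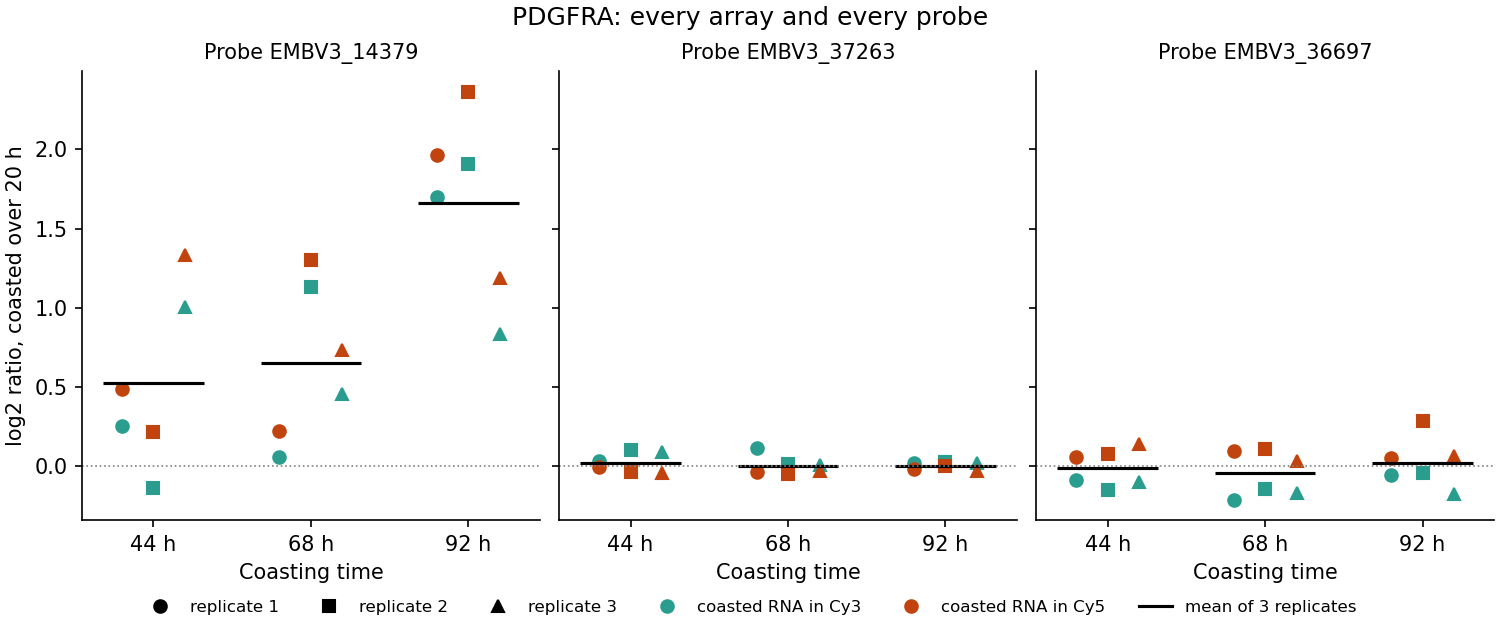
Log2 ratio of coasted over 20 h signal on each of the 18 arrays for the 3 PDGFRA probes, by coasting time, with replicates as symbols, dye orientation as colour and the mean of 3 replicates as a line. The ratios of EMBV3_14379 at 92 h lie between 0.83 and 2.37, while both other probes stay near 0 at every time.

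The single channels show which side of the ratio varied. Log2 brightness of EMBV3_14379 in the coasted channel was 10.84, 10.60 and 11.59 at 44 h, against 10.48, 10.56 and 10.42 in the 20 h channel of the same arrays. At 68 h it was 10.67, 11.55 and 10.98 in the coasted channel, against 10.53, 10.33 and 10.39 in the 20 h channel. At 92 h it was 12.06, 12.43 and 11.21 in the coasted channel, against 10.23, 10.30 and 10.20 in the 20 h channel. Averaged over the dyes, the coasted and 20 h signals did not overlap at any of the 3 times, at 44 h only narrowly (10.60 against 10.56). On the single array of 44 h replicate 2 with coasted RNA in Cy3, the coasted channel (10.52) lay below the 20 h channel (10.66). The share of all genes without such overlap is not given here, and PDGFRA was chosen for its ratio, so nothing is read from this. Over the 9 samples the 20 h signal kept to a narrow band between 10.20 and 10.56 with a median of 10.39, so the spread between replicates lay mostly in the coasted channel. Within that band the 20 h signal was lowest on the 92 h arrays, with means of 10.49, 10.42 and 10.24 on the 44, 68 and 92 h arrays. A small part of the difference between 92 h and the earlier times therefore lay in the 20 h channel. With coasted RNA in Cy3 the ratio at 92 h was 1.70, 1.91 and 0.83, and with coasted RNA in Cy5 it was 1.97, 2.37 and 1.19. The orientations gave the same order of replicates, and each Cy5 value was above its Cy3 value. Of the 18 single arrays, 1 had a ratio below 0, that of 44 h replicate 2 with coasted RNA in Cy3, at -0.14.

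The gene's other probes did not show this difference. EMBV3_37263 had mean log2 ratios of 0.02 ± 0.01 at 44 h, 0.00 ± 0.03 at 68 h and 0.00 ± 0.01 at 92 h, and EMBV3_36697 had -0.01 ± 0.03, -0.05 ± 0.03 and 0.02 ± 0.09 (SD, n = 3 each). EMBV3_37263 was above background on 4 of 18 arrays in the coasted channel and 8 of 18 in the 20 h channel, and EMBV3_36697 on 0 of 18 in either. Negative control spots had a median log2 brightness of 7.77 and a 95th percentile of 7.86, and the 2 dim probes read between 7.66 and 7.90, so a change in them was not detectable. The PDGFRA values thus rest on 1 of 3 probes. Over the 9 replicates the bright probe's ratios correlated with those of EMBV3_37263 at r = -0.44 and with those of EMBV3_36697 at r = 0.75, values that share samples and arrays and come from ratios near 0 on the dim side.

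PDGFRB, the receptor for B and D chains, had 1 probe, EMBV3_00253, and its signal was at the background. Its mean log2 ratio was -0.00 ± 0.04 at 44 h, -0.00 ± 0.01 at 68 h and -0.00 ± 0.03 at 92 h (each n = 3, with SD). The probe was above background on 3 of 18 arrays in the coasted channel, all at 68 h, and on 6 of 18 in the 20 h channel. At 92 h it was above background in neither channel of any array, with log2 brightness between 7.84 and 7.87 in the coasted channel and between 7.84 and 7.86 in the 20 h channel. No change of PDGFRB could be detected at this brightness.

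PDGFA, whose homodimers act through PDGFRA, gave a high ratio in a single replicate at 92 h. Its bright probe, EMBV3_20052, was above background in both channels of all 18 arrays. The log2 ratio over 20 h was 0.07, 0.90 and 0.36 at 44 h and 0.14, 0.19 and 0.02 at 68 h. At 92 h it was 0.67, 3.34 and 0.08. Every replicate was above 0, but the third at both 68 and 92 h only just. Log2 brightness at 92 h was 8.79, 11.36 and 8.42 in the coasted channel, against 8.12, 8.03 and 8.33 in the 20 h channel. Replicate 2 alone stood far from the others, on the coasted side. The mean was 0.44 ± 0.42 at 44 h, 0.12 ± 0.09 at 68 h and, with an SD above the mean, 1.37 ± 1.73 at 92 h (n = 3 each, 2.58-fold). Without 92 h replicate 2 the mean at 92 h was 0.38. The second probe, EMBV3_11501, was above background on 1 of 18 arrays in the coasted channel and 0 of 18 in the 20 h channel, and its mean ratio was 0.03 at 44 h, 0.04 at 68 h and 0.01 at 92 h.

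Replicate 2 at 92 h also stood apart in other genes. Its ratio lay more than 2 log2 units above the mean of the other 2 replicates in 39 of 11044 genes and more than 2 below it in 27. For 92 h replicate 1 these counts were 13 and 2, and for replicate 3 they were 19 and 35. The counts were highest at 44 h, with 164 and 22 genes for replicate 2 and 9 and 221 for replicate 3. Some of the genes that stood apart with PDGFA, chosen here after their values were seen, bear on the family or on the cell type. PLAT, the tissue plasminogen activator, which can cleave and activate PDGF-CC, read 0.68, 3.69 and 0.00 in replicates 1 to 3 at 92 h. COL3A1, a fibrillar collagen of the theca and stroma list, read 0.05, 2.78 and -0.03. CYP19A1 read -1.06, -2.88 and 0.69 and the inhibin and activin subunit INHBA read -0.62, -3.07 and 0.30. The adjusted p of these 4 genes over the 3 replicates lay between 0.269 and 0.524 in limma, so none passed, and their part in the PDGFA value was not tested.

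PDGFB, whose chain binds both receptors, had 1 probe, EMBV3_29184, which did not pass the filter. It was above background on 1 of 18 arrays in the coasted channel, at 92 h, and 0 of 18 in the 20 h channel. Its log2 ratio at 92 h was 0.12, 0.12 and 0.06, with a mean of 0.10 ± 0.04, and its means were 0.01 ± 0.05 at 44 h and 0.04 ± 0.00 at 68 h (SD, n = 3 each). The coasted channel at 92 h read between 7.78 and 7.85 and the 20 h channel between 7.66 and 7.73. These groups did not overlap, yet both lay below the 95th percentile of the negative controls. The share of all genes without such overlap is not given, so nothing is read from this either.

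PDGFC, a ligand that must be cleaved before it can bind PDGFRA, was measured clearly on a pair of probes, which differed at 92 h. On EMBV3_31744, above background in both channels of all 18 arrays, the log2 ratio was -0.21, 0.05 and 0.58 at 44 h and 0.37, 0.12 and -0.34 at 68 h. At 92 h it was 0.25, 1.04 and 0.16. Replicates had both signs at the earlier times and 1 sign at 92 h. Log2 brightness at 92 h was 13.14, 13.14 and 12.91 in the coasted channel, against 12.89, 12.10 and 12.74 in the 20 h channel. The coasted signals were close to each other, and the higher ratio of replicate 2 came with the lowest 20 h signal of the 3. The means were 0.14 ± 0.40 at 44 h, 0.05 ± 0.36 at 68 h and 0.49 ± 0.48 at 92 h (each n = 3, with SD), the last a 1.40-fold higher signal. Without 92 h replicate 2 the mean at 92 h was 0.21, and the sign turned at 68 h without replicate 1 (-0.11) and at 44 h without replicate 3 (-0.08).

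The dye orientation bore on PDGFC more than on PDGFRA. With coasted RNA in Cy3 alone the mean ratio of EMBV3_31744 was 0.36 at 44 h, 0.23 at 68 h and 0.76 at 92 h, and with coasted RNA in Cy5 alone it was -0.08, -0.13 and 0.21. The average of both orientations, used above, cancels such an offset. The second probe, EMBV3_13834, also above background throughout, read -0.03, 0.40 and -0.18 at 92 h, a mean of 0.07 ± 0.30. On it the replicates at 92 h had both signs. The third probe, EMBV3_37699, was above background on 7 of 18 arrays in the coasted channel and 6 of 18 in the 20 h channel and read 0.12 ± 0.06 at 92 h. Over 9 replicates the pair of bright PDGFC probes correlated at r = 0.36.

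PDGFD, the other ligand that needs cleavage, was above background on 0 of 18 arrays in either channel on both of its probes. The mean log2 ratios of EMBV3_41279 were 0.01, -0.01 and 0.00 at 44, 68 and 92 h, and those of EMBV3_03989 were 0.02, -0.03 and 0.08. PDGFD was therefore not well above background at any coasting time.

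**Figure D2:**
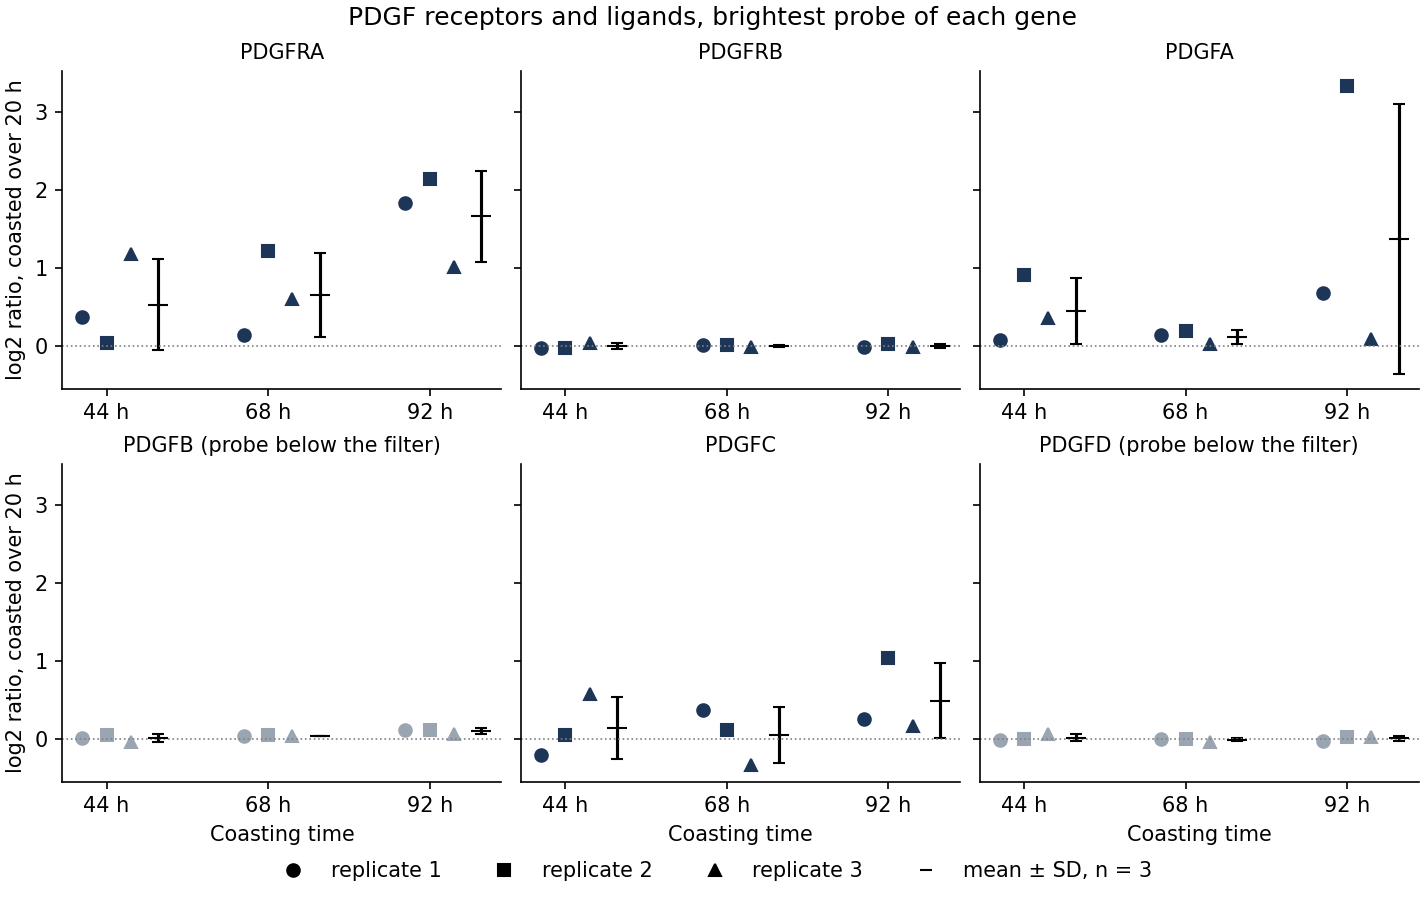
Log2 ratio of coasted over 20 h signal of the brightest probe of each gene, by coasting time, with replicates as symbols and mean ± SD beside them (n = 3). PDGFRA at 92 h lies between 1.01 and 2.14, PDGFA at 92 h is spread between 0.08 and 3.34, and PDGFRB, PDGFB and PDGFD stay near 0.

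**Figure D3:**
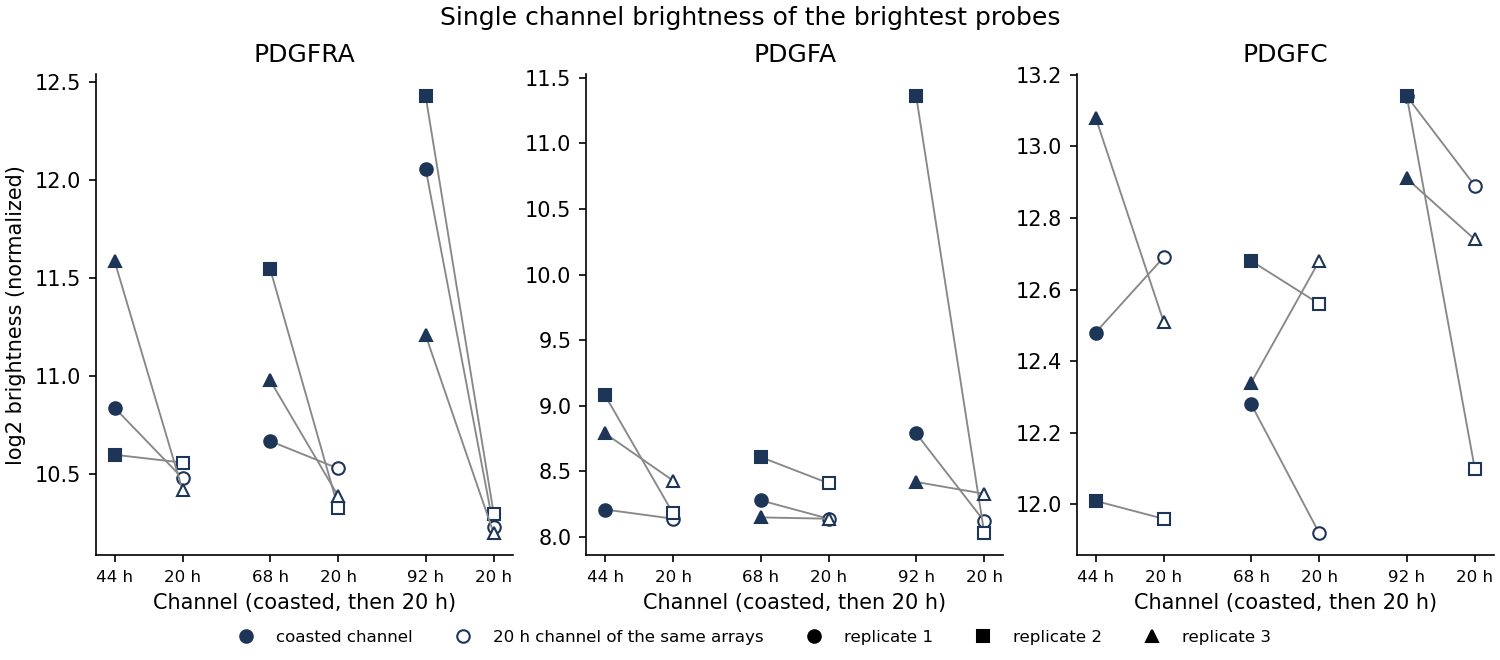
Normalized log2 brightness of the brightest probe of PDGFRA, PDGFA and PDGFC in the coasted channel (filled) and in the 20 h channel on those arrays (open), joined for each replicate. The vertical scales differ, since signals of different probes cannot be compared. The 20 h points of PDGFRA lie between 10.20 and 10.56, those of PDGFC between 11.92 and 12.89.

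In the fit across all genes, 1 of the 4 members kept, PDGFRA, was called higher at 92 h, where 2.32% of genes were called and 1.24% were called higher. All 3 replicates were above 0 for 3 of the 4 at 92 h, against 23.5% of all genes, for 2 at 68 h, against 21.8%, and for 2 at 44 h, against 12.7%. PDGFRA was not called in 10 of 19 alternative settings, among them the replicate block, median centring and each fit without a 92 h replicate. These contrasts were used to choose the members, so nothing is read from the counts. Limma called 0 genes at 68 h, where 1217 had an unadjusted p below 0.05, and 0 at 44 h, where 1057 did.

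The step between the intermediate times was not itself used to choose the genes and was tested for the 4 members. It is made of the 44 and 68 h ratios given above, so it is not independent of them. These times share the follicle size class. PDGFRA was 0.12 log2 units higher at 68 h than at 44 h, with a 95% interval from -0.88 to 1.13. PDGFC differed by -0.09, with an interval from -0.83 to 0.65, and PDGFA by -0.33, with an interval from -2.15 to 1.49. PDGFRB differed by 0.00, with an interval from -0.09 to 0.10, at a brightness that could not show a change. It was kept only through its coasted channel at 68 h, a time compared here (above background on 3 of 6 arrays), so nothing is read from its test. None of the 4 members passed (limma, adjusted p = 0.999 for each). In this comparison 0 of 11044 genes were called (0% of genes), while 596 had an unadjusted p below 0.05. The intervals of PDGFRA, PDGFA and PDGFC are wide, so the test does not show that these genes were at the same level at both times. Of the 68 h samples, replicate 3 shared its 2 slides with the 44 h samples, and on those slides the difference was 0.07 for PDGFRA, -0.43 for PDGFA, -0.48 for PDGFC and -0.01 for PDGFRB. As a description, PDGFRA was 1.01 log2 units higher at 92 h than at 68 h and 1.13 higher than at 44 h, each through its own 20 h channel. The 92 h arrays were on slides that held no other coasting time, and the 92 h follicles were larger. Slide, follicle size and time therefore cannot be told apart in these differences.

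Over the 9 replicate ratios, Pearson's r with PDGFRA was 0.64 for PDGFC and 0.61 for PDGFA. These placed 668 and 787 from the highest among 11043 genes, and the points share samples, arrays and possibly 20 h RNA. PDGFRB, at background, is not read here. The 5 genes most like PDGFRA were BMPR1B (r = 0.968), SMCO4 (0.967), HSPBAP1 (0.960), SETD6 (0.956) and RERG (0.95), and 27 genes had r above 0.9. BMPR1B is a type I receptor for bone morphogenetic proteins of granulosa cells. Its mean log2 ratio was -0.01 at 44 h, 0.17 at 68 h and 0.76 at 92 h. RERG, a small GTPase related to RAS, had 0.36, 0.41 and 0.73 at these times, and HSPBAP1 had 0.14, 0.03 and 0.53. SMCO4 and SETD6 reached only 0.15 and 0.05 at 92 h, so their high r rests on very small ratios. Within times, after each time's mean was taken off, r was between 0.90 and 0.98 for the 5 genes. They were picked by r over these same 9 values, so this range follows in part from the choice and adds no separate evidence.

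**Figure D4:**
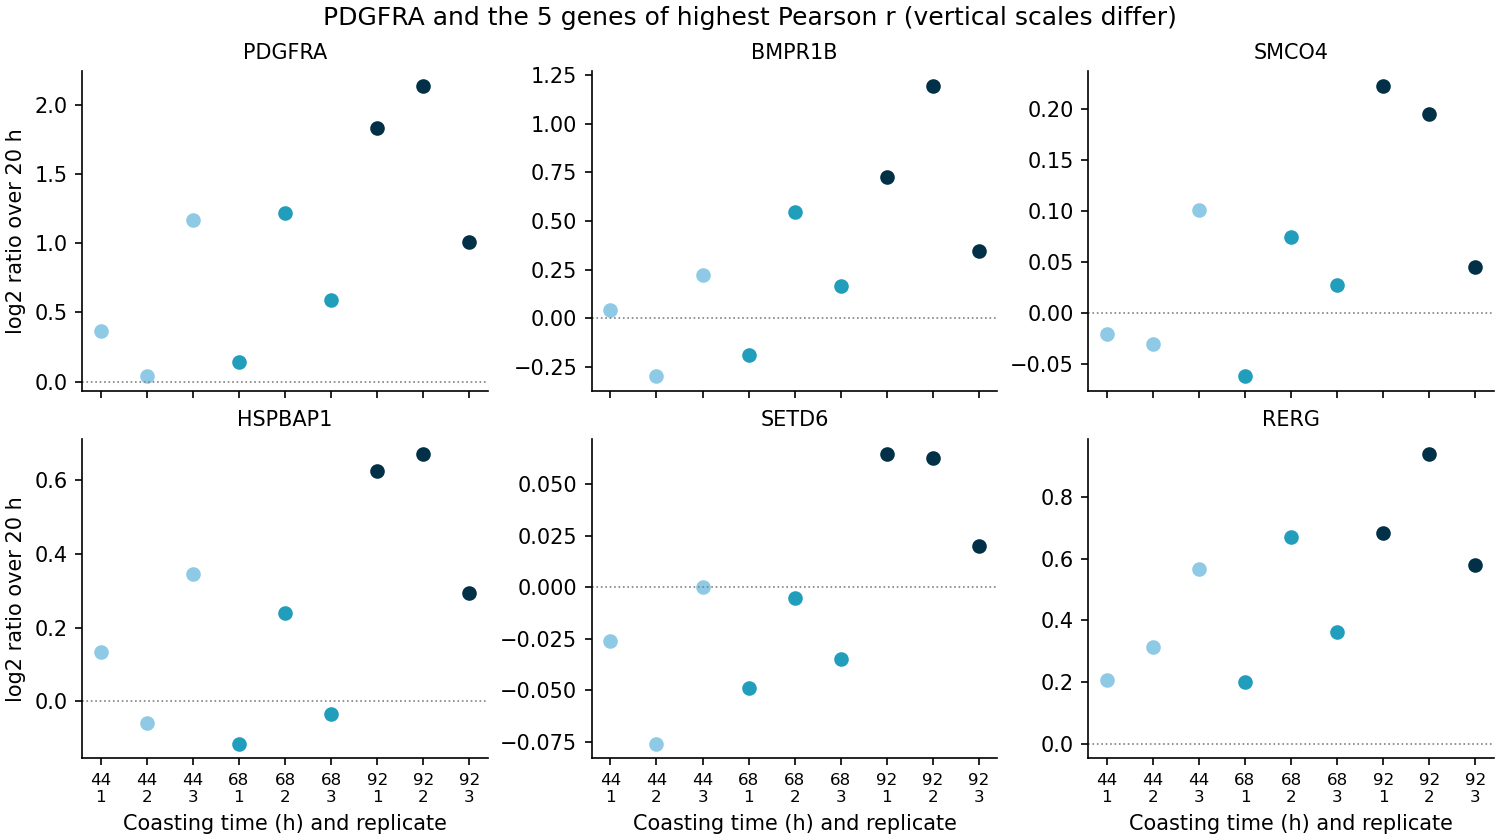
Log2 ratio over 20 h of PDGFRA and of the 5 genes with the highest Pearson r to it, for each of 9 replicates ordered by coasting time and replicate. The vertical scales differ: BMPR1B, HSPBAP1 and RERG average 0.76, 0.53 and 0.73 at 92 h, SMCO4 and SETD6 0.15 and 0.05.

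Of the genes that pass on the receptor signal, GAB1 and FYN rose at 92 h. Of 34 listed, 28 had a probe and 23 were tested, of which 2 rose and 0 fell, where 1.24% of all genes were called higher and 1.08% lower. Their median log2 ratio was -0.01, against -0.00 over all genes tested. GAB1, a docking protein that carries PI3 kinase and the phosphatase SHP2, read 0.93, 1.36 and 0.70 at 92 h, a mean of 0.99 ± 0.34 (limma, adjusted p = 0.0263). FYN, a kinase of the SRC family, read 0.54, 0.73 and 0.73, a mean of 0.66 ± 0.11 (limma, adjusted p = 0.0332). FYN had 0.60 ± 0.32 at 68 h, where it did not pass (limma, adjusted p = 0.148), and 0.16 ± 0.04 at 44 h. GAB1 had 0.08 ± 0.21 at 68 h and -0.14 ± 0.22 at 44 h. Both calls were lost when 92 h replicate 1 or 2 was left out (adjusted p between 0.122 and 0.176), and with the replicate block (0.0606 for GAB1 and 0.0698 for FYN). GAB1 was also lost without 68 h replicate 1 (0.0520), and FYN without 92 h replicate 3 (0.119) or 44 h replicate 1 (0.0570). Median centring lost both (0.124 for GAB1 and 0.110 for FYN), and FYN was lost with coasted RNA in Cy5 only (0.0725) and when the deposited value table was fitted instead (0.0527). AKT2, a kinase below PI3 kinase and named here after its values were seen, had the highest mean of the list, 1.12 ± 1.08, from 0.36, 0.64 and 2.36, and did not pass (limma, adjusted p = 0.413). SRC, BRAF, MAPK3, PIK3CB and PIK3R1 had only probes below the filter.

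Genes that cleave or bind the ligands or turn over the receptors gave 0 calls at 92 h among 17 tested of 24 listed, with a median log2 ratio of 0.02. NRP1, a co-receptor that also binds PDGF, had the smallest p of the list, with 2.33, 1.36 and 2.06 at 92 h (limma, adjusted p = 0.0986). PLAUR, the urokinase receptor, had 0.09 ± 0.06 (limma, adjusted p = 0.244). SPARC, a matrix protein that binds PDGF-BB and was named after its values were seen, read 0.47, 1.20 and -0.12 at 92 h. The convertases FURIN and PCSK5, the protease ST14 and the ubiquitin ligase CBL were not kept.

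Receptors and ligands of the related class III and V kinases gave 0 calls among 9 tested of 15 listed, with a median log2 ratio of -0.30 at 92 h. PGF, a ligand of the VEGF family, read -1.53, -1.75 and -2.52 (limma, adjusted p = 0.134), and KIT, the receptor for the stem cell factor KITLG, read -0.69, -0.74 and -0.21 (limma, adjusted p = 0.158). The ratios of both were below 0 in all 3 replicates, and neither passed. CSF1R, FLT1 and KDR were not above the filter.

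Of 39 immediate early genes, which are transcribed soon after growth factor receptors signal, 30 were tested, 2 rose at 92 h and 0 fell, beside 1.24% and 1.08% of all genes. Mean ratios of 26 of the 30 were above 0, and the median log2 ratio was 0.38, against -0.00 over all genes. Without 92 h replicate 2 the median was 0.29 and 27 means were above 0. MYC, a transcription factor of growth, read 1.18, 1.84 and 1.56 at 92 h (limma, adjusted p = 0.0224). DUSP6, a phosphatase that shuts off ERK, read 0.78, 0.55 and 0.86 (limma, adjusted p = 0.0311). MYC was not past the threshold when any 92 h replicate was left out (adjusted p between 0.0735 and 0.139) or with the replicate block (0.0628). DUSP6 was not past it without any 1 of the 92 h replicates (0.113 to 0.177), 68 h replicate 1 (0.0634) or 44 h replicate 1 (0.0540), or with the replicate block (0.0736). Median centring lost both (0.0850 for MYC and 0.124 for DUSP6). Several other members had 1 outlying replicate: FOSL1 read 0.11, 3.33 and 0.93, and CCN2 read 0.40, 3.50 and 0.98, both named after their values were seen. At 68 and 44 h limma called 0 genes of any of the 4 lists. Those lists had medians between -0.03 and 0.04 at 68 h and between -0.28 and 0.04 at 44 h.

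**Figure D5:**
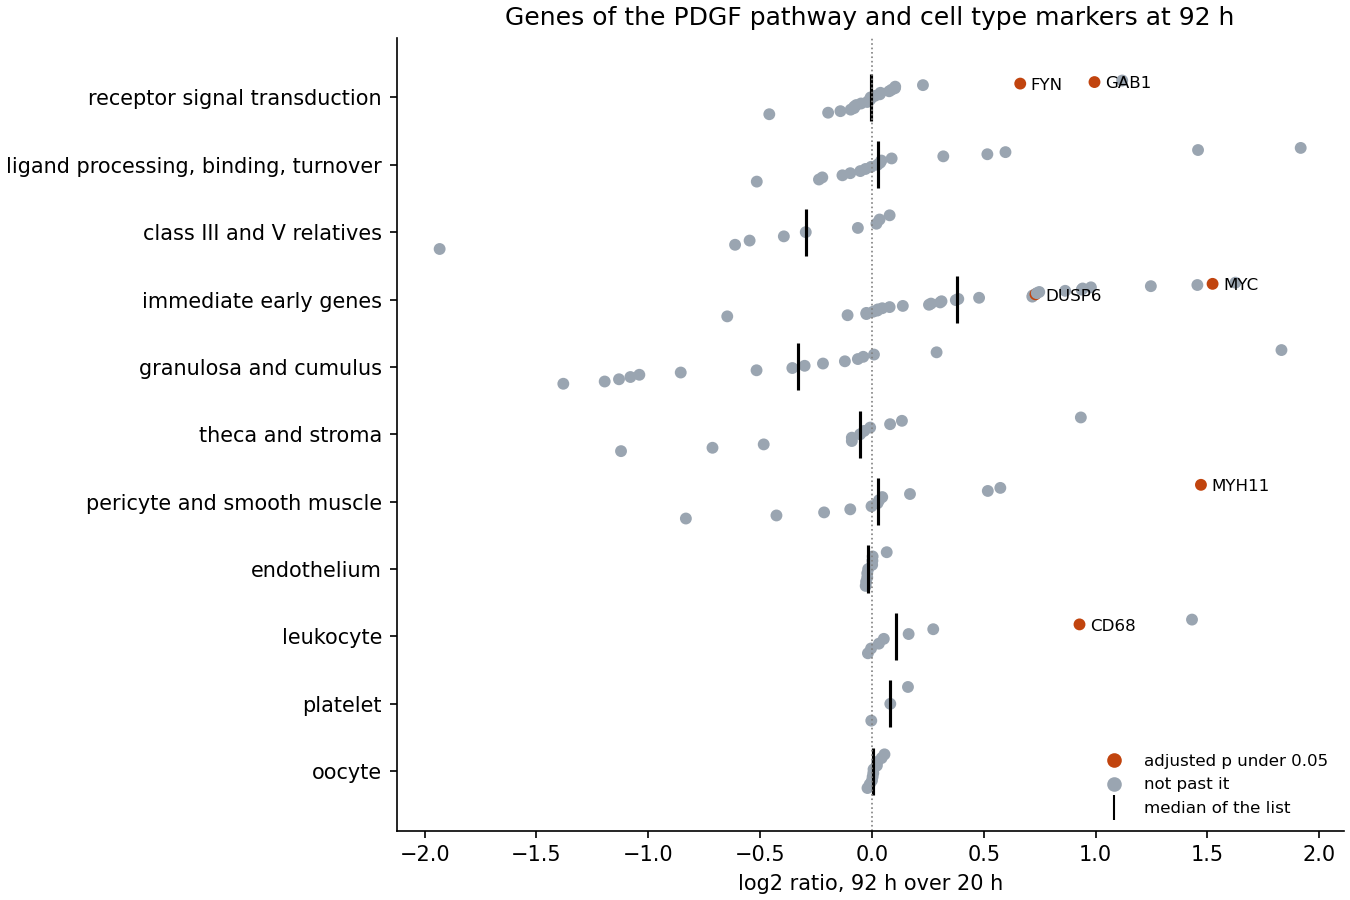
Mean log2 ratio of 92 h over 20 h for each tested gene of the 4 pathway lists and 7 cell type marker lists, with the median of each list as a bar and genes past an adjusted p of 0.05 in orange. The immediate early genes have the highest median, 0.38, and 6 genes are past the threshold, among them GAB1 and FYN of the signal transduction list.

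Since the receptors also mark theca, stroma and pericytes, markers of those cells were read beside PDGFRA. In the theca and stroma list 0 of 11 genes tested, of 21 listed, were called at 92 h, with a median log2 ratio of -0.05. The log2 of its summed brightness, called the sum here and for the lists below, lay between 13.04 and 13.83 in the coasted channel at 92 h. In the 20 h channel it lay between 13.06 and 14.03, and the groups overlapped. The brightest probes of a list weigh most in such a sum, so it says little of the dim markers. CYP17A1, the androgen synthesis enzyme that defines theca, named here after its values were seen, was above background on 0 of 6 arrays in the coasted channel at 92 h, with a ratio of -0.01 ± 0.02. LHCGR, GLI1, GLI2, GLI3, COL1A2, DCN and THY1 were not above the filter. INSL3, a hormone of theca cells, had -0.09 ± 0.03 (limma, adjusted p = 0.240), and TCF21, a stromal transcription factor, had -1.12 ± 1.25 (limma, adjusted p = 0.259). Mean ratios of 3 of the 11 genes were above 0 and 8 below. The 3 above, given after their values were seen, were COL3A1 (0.93, from 0.05, 2.78 and -0.03), PTCH1 (0.13) and COL15A1 (0.08). Replicate 2, with the high COL3A1 value, also had the highest PDGFRA ratio at 92 h, but not the highest PTCH1 or COL15A1 ratio. The share of all genes with this order is not given, so nothing is read from it. The part of theca and stroma cells in the PDGFRA ratio was not tested.

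In the pericyte and smooth muscle list 1 of 12 genes tested, of 16 listed, was called at 92 h, where 2.32% of all genes were. The median log2 ratio was 0.03, with 7 means above 0 and 5 below. MYH11, a smooth muscle myosin, read 1.83, 1.49 and 1.10 (limma, adjusted p = 0.0120), on 6 of 6 arrays above background in the coasted channel and 3 of 6 in the 20 h channel. Its call was lost without 92 h replicate 1 (adjusted p = 0.0913) or 2 (0.0630). The sum of the list was between 14.13 and 14.37 in the coasted channel and between 13.96 and 14.29 in the 20 h channel. RGS5, a defining gene of pericytes, was not above the filter. KCNJ8, a potassium channel of pericytes named after its values were seen, read -0.83, -1.21 and -0.46 at 92 h and did not pass (limma, adjusted p = 0.186), and MCAM and CNN1, named likewise, averaged -0.43 and -0.21. Among the genes above 0 in all 3 replicates at 92 h, also named likewise, ACTA2 averaged 0.57, ACTG2 0.52 and MYLK 0.17. These did not pass either (limma, adjusted p = 0.580, 0.791 and 0.165), and MYLK was above background on 2 of 6 arrays in the coasted channel. At 44 h the sum ranged between 13.55 and 15.18 in the coasted channel, against 13.96 to 14.34 in the 20 h channel. The part of these cells in the PDGFRA ratio was not tested.

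Markers of cells that can supply PDGF ligands were at or near background, apart from some genes of the leukocyte list. In the endothelial list 0 of 9 genes tested, of 15 listed, were called, and the sum was between 11.14 and 11.17 in the coasted channel at 92 h, against 11.15 to 11.17 in the 20 h channel. PECAM1, KDR and EMCN were not above the filter, and EGFL7 and VWF had ratios of 0.07 and -0.02 (limma, adjusted p = 0.636 and 0.787). In the platelet list 0 of 3 genes tested, of 9 listed, were called, with sums between 9.60 and 9.67 in the coasted channel and between 9.52 and 9.58 in the 20 h channel, and PF4, PPBP and ITGA2B were not above the filter. Its 2 genes of smallest p, SELP and GP9, had 0.16 and 0.08 (limma, adjusted p = 0.478 and 0.840).

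In the leukocyte list 1 of 8 genes tested, of 17 listed, was called, where 2.32% of all genes were. The median log2 ratio was 0.11, with 6 means above 0 and 2 below. CD14, CD163, CSF1R, TYROBP, LCP1, ITGB2 and CORO1A were not above the filter. CD68, a macrophage gene, read 1.27, 1.18 and 0.34 at 92 h (limma, adjusted p = 0.0465). The call was lost with the replicate block (0.0693) and in 6 of the 9 fits that left out a replicate, those without 92 h replicates 1 or 2 (0.229 and 0.255), any 68 h replicate (0.0588 to 0.0908) or 44 h replicate 1 (0.0746). It was also lost with median centring (0.0583), coasted RNA in Cy5 only (0.0878) and no filter on dim probes (0.0648). CXCR4, a chemokine receptor named after its values were seen, read 1.79, 1.82 and 0.68 and did not pass (limma, adjusted p = 0.0504). The sum of the list was between 11.29 and 12.00 in the coasted channel at 92 h, above the 20 h range of 11.09 to 11.14. CXCR4, the brightest gene of the list (mean log2 brightness 9.08), weighs most in it. The share of genes or lists without such overlap is not given, so nothing is read from these sums or the platelet sums. PTPRC, the gene that defines all leukocytes, also named after its values were seen, had a ratio of 0.05 ± 0.06. Named likewise, CD53 averaged 0.27, AIF1 0.16, CD2 0.03, FCER1G -0.00 and CD3E -0.02, and none of these passed. Replicate 3 had the lowest ratio at 92 h in CD68, CXCR4 and PDGFRA, as it had in GAB1 and CDH2 but not in MYC or DUSP6. The share of all genes with this order is not given, so nothing is read from it. The part of leukocytes in the PDGFRA and PDGFA ratios was not tested.

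The oocyte list gave 0 calls among 10 tested of 17 listed, with sums between 11.65 and 11.72 in the coasted channel at 92 h and between 11.62 and 11.73 in the 20 h channel, and GDF9, ZP2 and ZP4 were not above the filter. BTG4 and H1-8, the genes of smallest p, had 0.06 and 0.04 (limma, adjusted p = 0.416 and 0.674). The granulosa and cumulus list gave 0 calls among 16 tested, with a median log2 ratio of -0.33 at 92 h that was -0.04 without 92 h replicate 2. CDH2, the N-cadherin of granulosa cells, had 1.83 ± 1.24 (limma, adjusted p = 0.0778) and INHA -0.86 ± 0.78 (limma, adjusted p = 0.200), and neither passed.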

How the data were processed

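Gene expression was measured on 18 dual-channel Agilent arrays, and per the labels RNA was amplified in 2 rounds and labelled chemically with Cy3 or Cy5. The deposited scanner files give, per the file headers, mean spot and local background intensity for both dyes, without normalization. For image software and the authors' processing, details were not given in the sources used. The authors' deposited value table holds a log2 ratio, found here to follow Cy5 over Cy3 (r between 0.82 and 0.93 per array, column medians between -0.04 and 0.02), with unknown background correction and normalization, and served as an alternative. Arrays with equal comparison and replicate number but opposite dyes were treated as dye swaps of the same extracts, which the labels do not state.

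Intensities were corrected with normexp (offset 50), normalized by loess within arrays, turned to coasted over 20 h and averaged over the 2 orientations, leaving 9 values and none missing for the members. Single channels were scaled with Aquantile. A probe was above background past the mean plus 2 SD of 153 negative controls, and was kept if so on 50% of the arrays of any coasting time, which left 27381 probes. The brightest kept probe stood for a gene. Of 43794 probes 21790 had 1 symbol and 22004 none; 1524 symbols were updated. Dim probes have compressed ratios.

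Genes were tested with limma 3.58.1 in R 4.3.3, 1 coefficient per time, 6 residual degrees of freedom, two-sided, with Benjamini-Hochberg adjustment over 11044 genes at 0.05. The fit treats the 9 values as independent, although they may share 20 h RNA, so p-values may be too small. The steps were tested on simulated data. The members and lists were chosen with earlier results of these data known. Named are the 6 members with every probe, list genes called at any time or otherwise the 2 of smallest p at 92 h, the 5 genes of highest r to PDGFRA and 5 granulosa genes, beside genes said to be chosen later. Replicate numbers are not stated to mark shared animals. Deviations of equal numbers at 92 and 44 h correlated positively across genes (r = 0.36, 0.26 and 0.24), while those with 68 h correlated negatively (r between -0.35 and -0.03). These values do not settle whether equal numbers share animals, so a fit with the replicate number as a block was also made.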

Additional observations from a re-analysis of the deposited data

How the results depend on the processing

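Under the other normalizations, single dye orientations and the deposited value table, the mean PDGFRA ratio kept its sign. It lay between 1.48 and 1.84 at 92 h, between 0.55 and 0.75 at 68 h and between 0.31 and 0.68 at 44 h. With a replicate left out it lay between 1.42 and 1.99, 0.37 and 0.91, and 0.20 and 0.77 at these times. All 9 ratios were above 0, so leaving 1 out could not turn the sign. Nor can it move a mean of 3 by 1 SD, so these ranges only describe the spread. PDGFRA was among the genes called at 92 h in 9 of 19 alternatives and not in 10, including every fit without a 92 h replicate, those without 68 h replicates 1 or 3 or 44 h replicate 1, and the replicate block. The PDGFA mean at 92 h ranged between 0.38 and 2.00. PDGFC at 44 h read -0.04 with median centring. The 256 genes called at 92 h became 1489 with coasted RNA in Cy3 only, 68 with median centring (13 higher and 55 lower, against 137 and 119), 459 without background correction, 117 with the replicate block, 4494 with slide as a random block and 0 with a trended, robust variance prior. Leaving out a replicate gave between 0 and 526 (0 without 92 h replicate 1, 12 without replicate 2, 65 without replicate 3; 102 and 95 without 68 h replicates 1 and 3; 170, 526 and 498 without 44 h replicates 1, 2 and 3). At 68 h the 0 became 1822 with Cy3 only, 62 with Cy5 only, 4 with median centring, 1062 with the slide block and between 0 and 21 without a replicate. At 44 h the 0 became 92 with Cy3 only and 3939 with the slide block, and stayed between 0 and 0 without a replicate. Between 68 and 44 h the slide block gave 373. The slide block fit takes the 18 arrays as its values, so the 2 dye orientations of a replicate count as separate samples and its p-values are too small. Its slide correlation was also negative (-0.25), which shrinks the errors further where each slide held a single dye orientation, as at 92 and 44 h. This does not hold for 68 h replicates 1 and 2, which had both orientations on the same slide. The causes of the other changes were not tested. The 4 pathway list calls at 92 h became 0 with the replicate block, median centring, the trended prior and without 92 h replicate 1 or 2, 1 without replicate 3, and 12 with Cy3 only. The 2 marker list calls became 1 with the block or median centring, 0 with the trended prior and without 92 h replicate 1 or 2, and 9 with Cy3 only. Dropping the filter on dim probes cannot change a member's ratio and has no value for it. Signal over background limits PDGFRB, PDGFB, PDGFD and the dim probes.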
